A study of Mus musculus with 6 samples.

Results

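The genes described here encode the proteasome, its regulators and its assembly chaperones, measured by RNA-seq in inguinal white fat of cold-stimulated mice. They were chosen by symbol, as every gene whose symbol begins with Psm, a letter from a to g and a number, and whose mean over the 6 libraries was at least 1 FPKM (sequenced fragments divided by transcript length and library total). The pattern matched 49 of 17342 named genes, and 47 passed the minimum. One of the 47, Psmc3ip, encodes a partner of recombinases in meiosis and no part of the proteasome; at a mean of 1.498 FPKM it lay just inside the minimum. The other 46 are called the proteasome genes below. The 2 matches below the minimum, both far under it, were Psma8, the alpha subunit of testis, with 0.0789, 0.157 and 0.215 FPKM in Rarres2-/- libraries and 0, 0.0752 and 0.259 FPKM in WT libraries, and Psmb11, the beta subunit of thymic epithelium, with 0.0397 FPKM in Rarres2-/- replicate 4 and 0 in the other libraries.

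The proteasome degrades proteins that carry ubiquitin chains. Its 20S core is a barrel of alpha and beta rings, in which Psmb6, Psmb7 and Psmb5 carry the caspase-like, trypsin-like and chymotrypsin-like active sites, and its 19S cap binds, unfolds and feeds in the substrate. Interferon gamma induces the immune subunits Psmb9, Psmb10 and Psmb8, which replace Psmb6, Psmb7 and Psmb5 and favour peptides that major histocompatibility complex class I molecules can present. In mouse brown fat the transcription factor Nfe2l1 is known to raise proteasome activity during adaptation to cold.

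The 6 libraries came from C57BL/6 mice aged 8 weeks, all exposed to cold: 3 from Rarres2-/- mice (replicates 4, 5 and 6) and 3 from WT mice (replicates 1, 2 and 3). Rarres2 encodes chemerin, an adipokine and a ligand of the receptor Cmklr1. The labels give a Rarres2-/- genotype without the deleted part of the gene, and sex, temperature and length of exposure were among the details not given in the sources used here. No warm group is part of the series, so the comparison is of genotypes within the cold. No label says that each library is a separate mouse, so p-values measure the spread between these libraries, which may be technical in part.

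Rarres2 itself had 0.260, 6.35 and 1.41 FPKM in Rarres2-/- libraries and 436, 610 and 505 FPKM in WT libraries. The 6 white adipocyte markers listed for the tissue check were present in all libraries, with Adipoq between 2118 and 2809 FPKM in Rarres2-/- fat and between 2315 and 2563 FPKM in WT fat. Their log2 differences, Rarres2-/- minus WT, were above 0 in 6 of 6, against 48.6% of all genes tested. In Plin1, Cidec and Lipe the genotypes did not overlap, with Rarres2-/- higher, as in 5.81% of all genes tested. The differences were below 0 in 9 of 9 macrophage markers and 6 of 6 progenitor and fibroblast markers. Most macrophage signs depended on single WT libraries. All but that of C1qa turned above 0 when WT replicate 2 or WT replicate 3 was left out. Lyz2 was at -0.93 without WT replicate 1, and at 0.24 and 0.26 without WT replicates 2 and 3. C1qa stayed below 0, at -0.89, -0.07 and -0.02. None of these markers had a limma adjusted p under 0.05, and their part in the proteasome values was not tested. FPKM hold no depth; from the steps between low values, depth relative to WT replicate 2 was 0.697 to 1.003 in Rarres2-/- libraries and 0.485 to 1.01 in WT libraries. WT replicate 1 was the shallowest library and stood apart from the other WT libraries in its markers of other cells. Its 6 skeletal muscle markers summed to 1166 FPKM and its 5 endothelial markers to 169 FPKM, against 137 to 222 FPKM and 34.4 to 39.6 FPKM in WT replicates 2 and 3. Its 9 macrophage markers summed to 477 FPKM, against 2013 FPKM in each of those libraries. Its 6 progenitor and fibroblast markers summed to 1079 FPKM, against 4500 and 3190 FPKM in WT replicates 2 and 3. Rarres2-/- replicate 4 had an endothelial sum of 110 FPKM, against 34.5 and 35.1 FPKM in replicates 5 and 6 of its genotype. For the catalytic subunits, their ratios and the counts over the proteasome genes, results are also given without Rarres2-/- replicate 4 or WT replicate 1. The lists of related genes are given with all 6 libraries only.

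No proteasome gene differed between the genotypes at a limma adjusted p under 0.05, and none at an unadjusted p under 0.05. Over all 11086 genes tested, 0% passed the first threshold and 3.93% the second. Log2 differences, Rarres2-/- minus WT on the log2(FPKM + 1) scale, were above 0 for 25 proteasome genes and below 0 for 21. Their median was 0.02, against -0.01 over all genes tested, and it turned to -0.03 with quantile normalization. None reached 0.5 in either direction, and the smallest adjusted p among the 46 was 0.999 by limma. In fat as a bulk tissue, fewer cells of a type and less RNA per cell cannot be told apart.

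**Figure D1:**
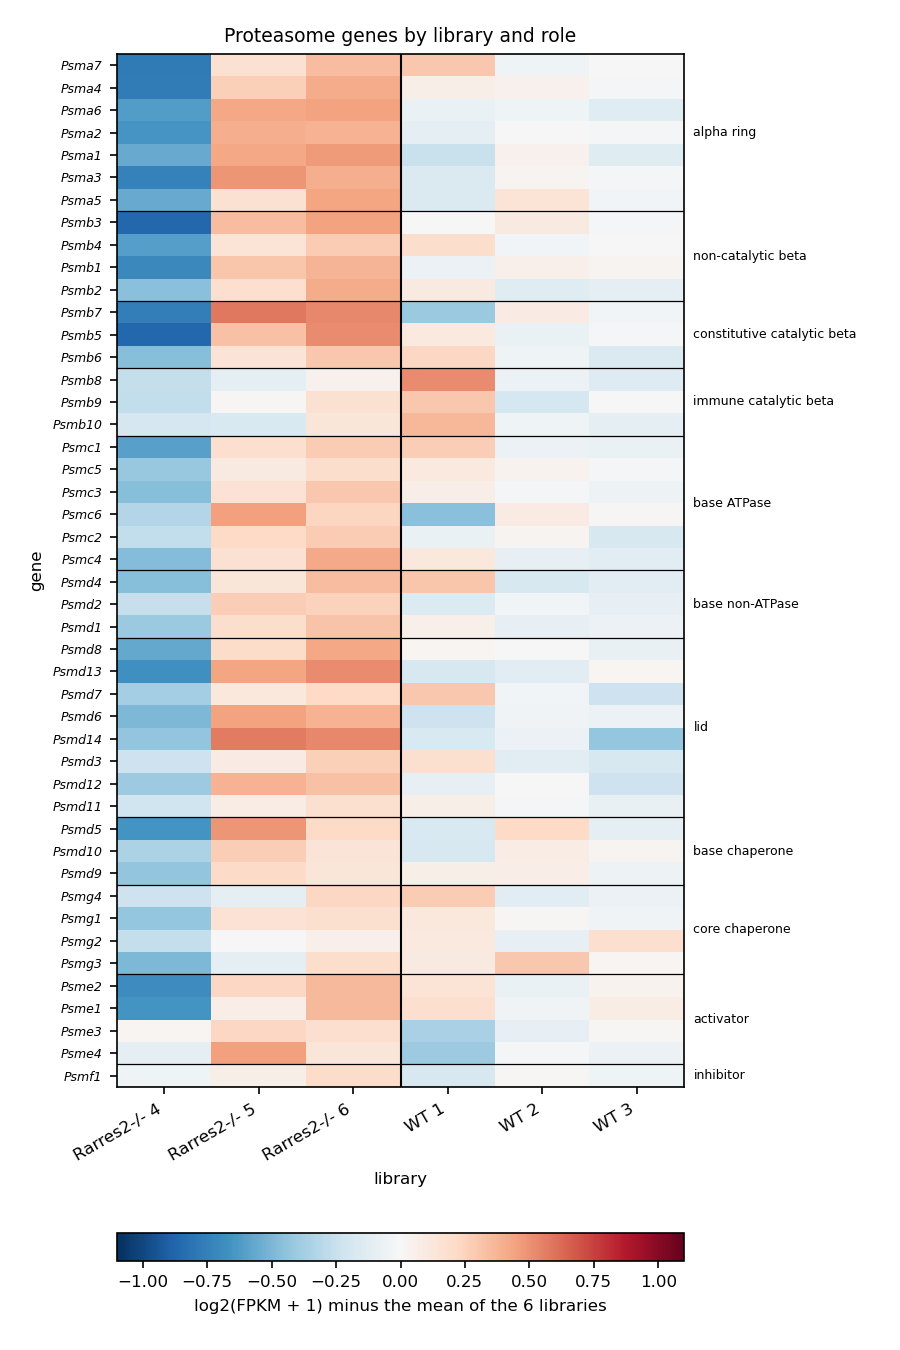
Each of the 46 proteasome genes (rows, grouped by role) in each of the 6 libraries (columns), coloured by the deviation of log2(FPKM + 1) from the mean of that gene over the libraries. The column of Rarres2-/- replicate 4 is the lowest for 42 genes, while the columns of Rarres2-/- replicates 5 and 6 are high for most, and the 3 immune subunits peak in WT replicate 1.

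The proteasome genes spread widely among Rarres2-/- libraries, and mostly in the same direction. Replicate 4 was the lowest of the 6 libraries for 42 of 46 proteasome genes (91.3%), against 28.6% of all genes tested. Replicates 5 and 6 were both above every other library for 31 (67.4%), against 17.6% of all genes tested. Both patterns held together for 27 genes (58.7%), against 9.46%. In the other 4 genes, Psme3, Psme4, Psmc6 and Psmf1, WT replicate 1 was the lowest library. These ranks were noted after the values were seen, and describe the libraries without a test.

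In median deviation from the mean of each gene, the proteasome genes stood at -0.47, 0.20 and 0.30 on the log2 scale in Rarres2-/- replicates 4, 5 and 6, and at 0.07, -0.03 and -0.05 in WT replicates 1, 2 and 3. The same medians over all genes tested lay between -0.04 and 0.02. The ratio of the highest to the lowest library within a genotype had a median of 1.75 in Rarres2-/- fat and 1.177 in WT fat over the 46 genes. Over all genes tested it was 1.44 in Rarres2-/- fat and 1.35 in WT fat. The ratio was wider in Rarres2-/- than in WT fat for 42 proteasome genes (91.3%), against 54.6% of all genes tested. The 4 exceptions were the immune subunits Psmb8, Psmb9 and Psmb10 and the activator Psme3.

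**Figure D2:**
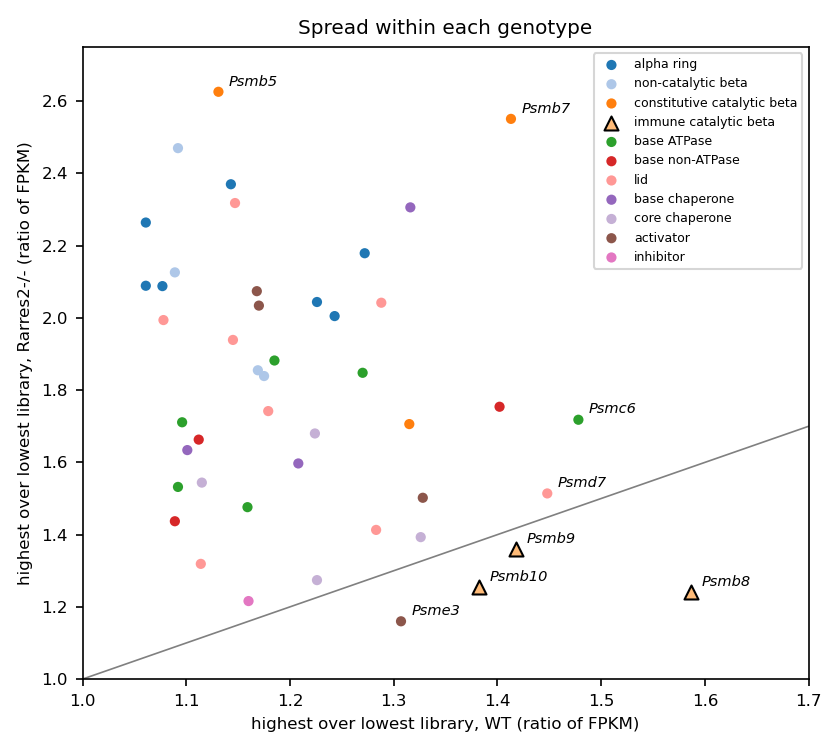
Ratio of the highest to the lowest library among Rarres2-/- libraries against the same ratio among WT libraries, 1 point a gene, on linear axes with a line of equality and with the roles in colour. All 14 constitutive 20S genes lie above the line, with a median ratio of 2.11 in Rarres2-/- fat and 1.16 in WT fat, and the 3 immune subunits and Psme3 lie below it.

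Replicate 4 was also low for short and for abundant transcripts in general. It was the lowest library for 62.3% of 1605 tested genes with a transcript under 1500 nucleotides and for 14.8% of 5349 genes over 3000 nucleotides. Of 587 genes that were both short and at a mean of at least 50 FPKM, it was the lowest for 79.6%. The proteasome genes have transcripts of 555 to 6491 nucleotides, with a median of 1490, against 3046 over the tested genes. Replicate 4 was the lowest library for all 23 proteasome genes under 1500 nucleotides and for 82.6% of the 23 longer ones. Of 920 longer genes at a mean of at least 50 FPKM it was the lowest for 41.5%. Across the 46 genes, its deviation and transcript length had a Spearman rho of 0.37 and, with length on the log2 scale, a Pearson r of 0.37, a description over genes that share libraries.

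Other short, abundant gene families were low in the same library. It was the lowest for 94.9% of 78 cytosolic ribosomal protein genes and for 97.2% of 36 genes of respiratory complex I. The height of Rarres2-/- replicates 5 and 6 was less widely shared. Both were above all other libraries for 3.85% of the ribosomal protein genes, 33.3% of the complex I genes and 29.3% of the short, abundant genes. The share was 43.6% of the longer, abundant genes and 37.9% of all genes at a mean of at least 50 FPKM. It was 67.4% of the proteasome genes. The part of transcript length and level in the proteasome values was not tested.

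The catalytic subunits of the constitutive core followed the common pattern, except that in Psmb6 Rarres2-/- replicate 5 was below WT replicate 1. Psmb7, of the trypsin-like site and the most abundant proteasome transcript by mean FPKM, had 155, 395 and 381 FPKM in Rarres2-/- replicates 4, 5 and 6, against 198, 280.3 and 258 FPKM in WT replicates 1, 2 and 3. Psmb5, of the chymotrypsin-like site, had 94.96, 217 and 249 FPKM in Rarres2-/- fat and 187, 165 and 171 FPKM in WT fat. Psmb6, of the caspase-like site, had 105, 161 and 179 FPKM in Rarres2-/- fat and 170.3, 140.2 and 129.6 FPKM in WT fat. For all 3 the lowest library was Rarres2-/- replicate 4 and the highest was Rarres2-/- replicate 5 or 6, so that the WT range lay inside the Rarres2-/- range.

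Their means hid that spread. Psmb5 averaged 187 ± 81.5 FPKM in Rarres2-/- and 174 ± 11.2 FPKM in WT fat (SD, n = 3 each). Psmb6 averaged 148 ± 38.6 FPKM in Rarres2-/- and 147 ± 21.1 FPKM in WT fat. Psmb7 averaged 310.3 ± 135 FPKM in Rarres2-/- and 246 ± 42.4 FPKM in WT fat. On the log2 scale the differences were -0.01 (SE 0.365) for Psmb5, -0.01 (SE 0.248) for Psmb6 and 0.23 (SE 0.389) for Psmb7. Each was smaller than its standard error. Without Rarres2-/- replicate 4 they were 0.42, 0.22 and 0.67.

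The immune subunits behaved differently. Psmb8, the immune counterpart of Psmb5, had 71.3, 80.1 and 88.5 FPKM in Rarres2-/- replicates 4, 5 and 6, against 124, 81.8 and 77.8 FPKM in WT replicates 1, 2 and 3. Psmb9, the counterpart of Psmb6, had 43.6, 53.1 and 59.2 FPKM in Rarres2-/- fat and 65.0, 45.9 and 52.5 FPKM in WT fat. Psmb10, the counterpart of Psmb7, had 42.9, 43.5 and 53.8 FPKM in Rarres2-/- fat and 63.3, 47.4 and 45.8 FPKM in WT fat. WT replicate 1 was the highest library for all 3 and Rarres2-/- replicate 4 the lowest, and the genotypes overlapped in each. Over all genes tested, WT replicate 1 was the highest for 24% and Rarres2-/- replicate 4 the lowest for 28.6%.

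Psmb8 averaged 80.0 ± 8.57 FPKM in Rarres2-/- and 94.4 ± 25.3 FPKM in WT fat (SD, n = 3 each). Psmb9 averaged 52.0 ± 7.89 FPKM in Rarres2-/- and 54.5 ± 9.73 FPKM in WT fat. Psmb10 averaged 46.7 ± 6.14 FPKM in Rarres2-/- and 52.2 ± 9.67 FPKM in WT fat. The log2 differences were -0.21 (SE 0.222) for Psmb8, -0.06 (SE 0.197) for Psmb9 and -0.15 (SE 0.189) for Psmb10, with limma adjusted p of 0.999 each. Without WT replicate 1 and Rarres2-/- replicate 4 all 3 turned to the other side of 0, at 0.076, 0.19 and 0.053. The negative differences thus rested on those libraries. The highest-to-lowest ratio of Psmb8 was 1.24 in Rarres2-/- and 1.59 in WT fat, whereas that of Psmb5 was 2.63 in Rarres2-/- and 1.13 in WT fat.

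**Figure D3:**
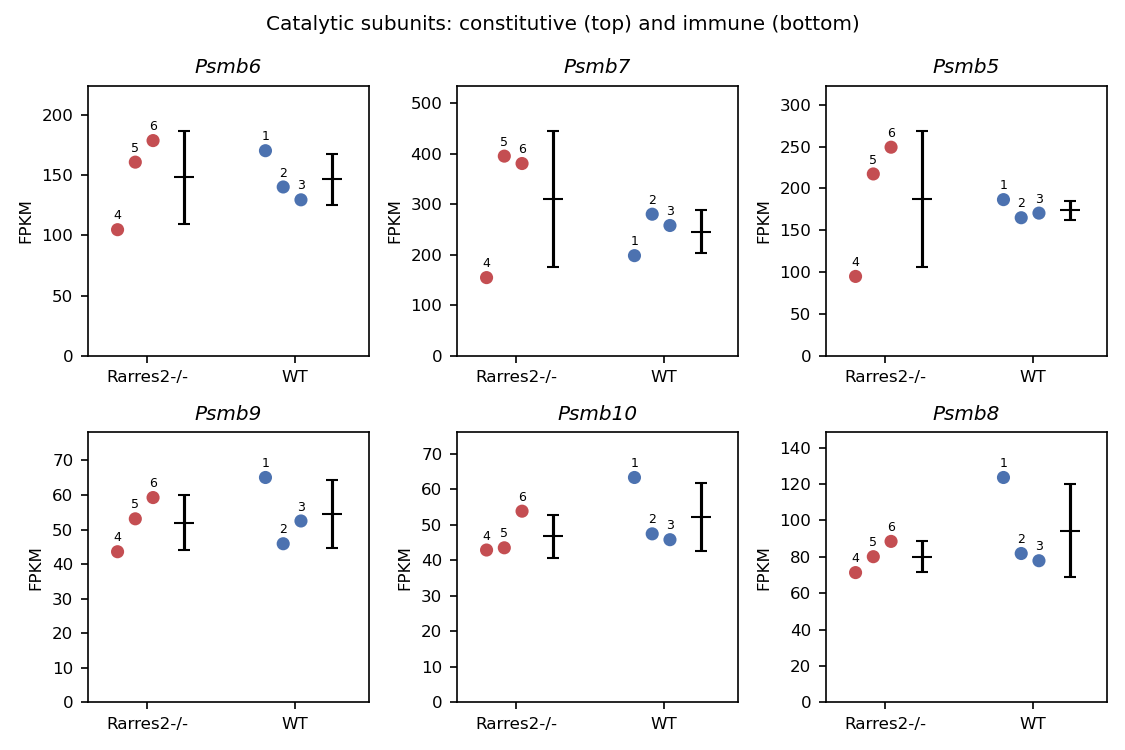
FPKM of the 3 constitutive and 3 immune catalytic subunits in each library (points, labelled by replicate), with the mean and SD of each genotype, Rarres2-/- left of WT. Psmb5, Psmb6 and Psmb7 range widely among Rarres2-/- libraries, from 94.96 to 249 FPKM in Psmb5, while Psmb8, Psmb9 and Psmb10 keep a narrow range there and peak in WT replicate 1.

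The balance of immune and constitutive subunits was set by ratios within a library, which do not depend on its scaling. Psmb5, Psmb6 and Psmb7 have transcripts of 899, 798 and 1160 nucleotides, against 1628, 1352 and 1311 in Psmb8, Psmb9 and Psmb10. They are also more abundant than their immune counterparts. The part of transcript length and level in these ratios was not tested. On the log2 scale, Psmb8 to Psmb5 was -0.41, -1.44 and -1.49 in Rarres2-/- replicates 4, 5 and 6 and -0.60, -1.01 and -1.13 in WT replicates 1, 2 and 3. Psmb9 to Psmb6 was -1.27, -1.60 and -1.59 in Rarres2-/- and -1.39, -1.61 and -1.30 in WT fat. Psmb10 to Psmb7 was -1.85, -3.18 and -2.82 in Rarres2-/- and -1.65, -2.56 and -2.49 in WT fat. In all 6 libraries each immune subunit was below its constitutive counterpart, and the genotypes overlapped for all 3 pairs.

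The mean difference between genotypes was -0.20 for Psmb8 to Psmb5, from -1.12 ± 0.610 in Rarres2-/- and -0.91 ± 0.282 in WT fat (SD, n = 3 each; exact two-sided permutation p = 0.6). It was -0.05 for Psmb9 to Psmb6, from -1.49 ± 0.191 in Rarres2-/- and -1.43 ± 0.159 in WT fat (exact permutation p = 1). It was -0.38 for Psmb10 to Psmb7, from -2.62 ± 0.688 in Rarres2-/- and -2.24 ± 0.510 in WT fat (exact permutation p = 0.5). Adjusted over these 3 comparisons by Benjamini-Hochberg, the exact permutation p-values were 0.9, 1 and 0.9, and the smallest that 3 against 3 libraries allow is 0.1. Without WT replicate 1 and Rarres2-/- replicate 4 the differences were -0.40, -0.14 and -0.47. With single libraries left out, the Psmb8 to Psmb5 difference ran from -0.55 without Rarres2-/- replicate 4 to -0.01 without replicate 6. The Psmb10 to Psmb7 difference ran from -0.77 without Rarres2-/- replicate 4 to -0.09 without WT replicate 1.

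Summed over the 3 pairs, immune transcripts made up 30.8%, 18.6% and 19.9% of catalytic FPKM in Rarres2-/- replicates 4, 5 and 6, and 31.2%, 23.0% and 23.98% in WT replicates 1, 2 and 3. Rarres2-/- replicate 4 and WT replicate 1 thus had the highest share, and Rarres2-/- replicates 5 and 6 the lowest. The immune sums were 158, 177 and 202 FPKM in Rarres2-/- and 252, 175 and 176 FPKM in WT fat, and the constitutive sums 355, 773 and 809 FPKM in Rarres2-/- and 555, 586 and 558 FPKM in WT fat. In Rarres2-/- replicate 4 the constitutive sum was low, and in WT replicate 1 the immune sum was high. The endothelial marker sum was also highest in those libraries, at 110 FPKM in Rarres2-/- replicate 4 and 169 FPKM in WT replicate 1, against 34.4 to 39.6 FPKM in the other 4. Its member Tek was not, with 10.5 and 10.1 FPKM there against 14.6 and 12.1 FPKM in WT replicates 2 and 3. The sum of 5 natural killer cell markers was highest there too. It was 15.4, 7.73 and 12.0 FPKM in Rarres2-/- and 14.3, 8.73 and 9.96 FPKM in WT fat. Ncr1, Klrb1c and Nkg7 followed the sum, and Gzma and Prf1 did not. Gzma was highest in Rarres2-/- replicate 6, at 4.79 FPKM, against 4.35 FPKM in Rarres2-/- replicate 4 and 4.19 FPKM in WT replicate 1. Prf1 was highest in WT replicate 3, at 0.462 FPKM, with 0.432 and 0.285 FPKM in those libraries. The sum of 5 pan-leukocyte markers was not highest there, with 166, 121 and 133 FPKM in Rarres2-/- and 93.6, 163 and 274 FPKM in WT fat. The part of these cells, and of transcript length and level, in the immune share was not tested.

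**Figure D4:**
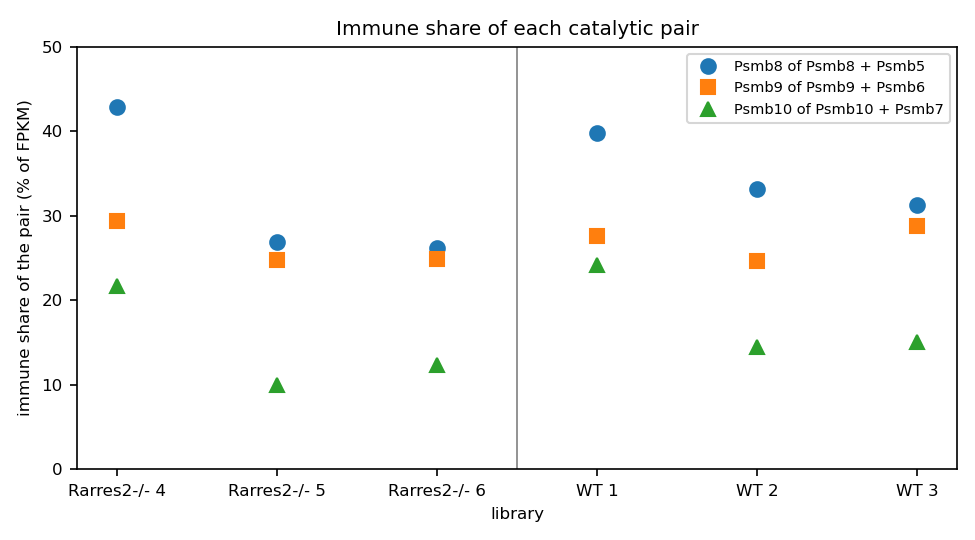
Percent of the FPKM of each catalytic pair that the immune subunit held (Psmb8 with Psmb5, Psmb9 with Psmb6, Psmb10 with Psmb7), by library, Rarres2-/- left of WT. For Psmb8 and Psmb10 the 2 high libraries are Rarres2-/- replicate 4 and WT replicate 1, at 42.9% and 39.8% for Psmb8, while Psmb9 varies little, from 24.7% to 29.4%.

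Promoter letters of catalytic subunits are shown because the constitutive and immune genes varied apart. Response elements were searched on both strands in the 250 bases before the gene start of a RefSeq promoter table (GRCm38.p6), available for 39 of the 46 genes. They were the antioxidant response element, TGANNNNGC, to which Nfe2l1 with a small Maf protein binds; the gamma-activated site, TTCNNNGAA, known from genes induced by interferon gamma; and the interferon-stimulated response element, a pair of GAAA with 2 bases between, to which interferon regulatory factors bind. The whole window of Psmb5 (chr14:54617996-54618245, minus strand) is followed by the matches of Psmb6 (chr11:70525338-70525356, plus strand), Psmb8 (chr17:34198088-34198116, plus strand) and Psmb9 (chr17:34187372-34187400, minus strand) with up to 10 bases on each side. Capitals mark an antioxidant response element in Psmb5, Psmb6 and Psmb9 and a gamma-activated site in Psmb8.
Psmb5: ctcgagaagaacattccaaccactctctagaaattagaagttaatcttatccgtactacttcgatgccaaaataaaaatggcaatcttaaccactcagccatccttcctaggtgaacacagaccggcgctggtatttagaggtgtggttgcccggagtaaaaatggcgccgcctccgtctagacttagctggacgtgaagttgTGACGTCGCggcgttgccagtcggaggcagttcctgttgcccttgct
Psmb6: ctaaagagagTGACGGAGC
Psmb8: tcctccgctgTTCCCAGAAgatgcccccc
Psmb9: ccttgcgcgaTGATGGGGCggggcctcag

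The match lay 47 to 39 bases before the start in Psmb5, 9 to 1 in Psmb6, 97 to 89 in Psmb8 and 60 to 52 in Psmb9, and no matches of these 3 elements overlapped there. Psmb10 had none of them in its window. Psmb7 was not searched, because the promoter table has no entry for it. The antioxidant response element letters stood in 13 of 39 proteasome promoters (33.3%), against 35.1% of all 27025 promoters in the table, in 5 of 11 promoters of constitutive 20S genes (45.5%) and in 3 of 14 promoters of 19S genes (21.4%). The gamma-activated site stood in 2 (5.13%), those of Psmb8 and Psmg1, against 7.18% of all promoters. The interferon-stimulated response element stood in 3 (7.69%), against 3.04% of all promoters. The CCAAT box, CCAAT, also searched on both strands, stood in 13 (33.3%), against 34.5%. In the GENCODE annotation the matches of Psmb8 and Psmb9 lie within exons of transcripts that start farther upstream. A match describes letters and not binding.

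The rest of the 20S core consists of 7 alpha subunits, which form the gate, and 4 beta subunits without an active site. Psma7 had 116, 224 and 253 FPKM in Rarres2-/- replicates 4, 5 and 6, against 245, 193 and 200.2 FPKM in WT replicates 1, 2 and 3, a log2 difference of -0.17 (SE 0.317). Psma1 had 90.9, 181 and 186 FPKM in Rarres2-/- fat and 113, 138 and 123 FPKM in WT fat, a log2 difference of 0.22 (SE 0.301). In both genes Rarres2-/- replicate 4 was below every WT library, and in Psma1 replicates 5 and 6 were above every WT library. The other alpha genes, Psma2 to Psma6, had log2 differences of -0.07 to 0.17.

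Of the beta subunits without an active site, Psmb4 had 155, 263 and 287 FPKM in Rarres2-/- fat and 270.4, 231 and 237 FPKM in WT fat, a log2 difference of -0.11 (SE 0.268). Psmb2 had 89.5, 141 and 165 FPKM in Rarres2-/- fat and 132, 113 and 115 FPKM in WT fat, a log2 difference of 0.09 (SE 0.252). Psmb1 and Psmb3 had log2 differences of -0.02 and -0.06. Over the 14 constitutive 20S genes, Rarres2-/- replicate 4 was the lowest library in 14, and replicates 5 and 6 were both above WT replicates 2 and 3 in 14, against 31.7% of all genes tested. Their median log2 difference was 0.01, with 7 above 0 and 7 below, and it was -0.05 with quantile normalization and -0.00 with upper-quartile scaling.

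The 19S cap holds the ATPases Psmc1 to Psmc6, which unfold the substrate, the base scaffolds Psmd1 and Psmd2, the ubiquitin receptor Psmd4 and a lid of 8 measured genes. Psmc6 had 46.0, 79.0 and 67.9 FPKM in Rarres2-/- replicates 4, 5 and 6, against 41.5, 61.4 and 58.1 FPKM in WT replicates 1, 2 and 3, a log2 difference of 0.24 (SE 0.256). Psmc2 had 45.4, 64.3 and 67.0 FPKM in Rarres2-/- fat and 52.4, 56.4 and 48.7 FPKM in WT fat, a log2 difference of 0.15 (SE 0.193). The genotypes overlapped in both. Without WT replicate 1, the lowest library for Psmc6, the difference of Psmc6 was 0.07. The other 4 ATPase genes had log2 differences of -0.09 to 0.07.

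Psmd2, a scaffold that binds shuttle factors, had 64.7, 92.9 and 92.0 FPKM in Rarres2-/- fat and 69.4, 75.6 and 72.2 FPKM in WT fat, a log2 difference of 0.18 (SE 0.190). Psmd1, the other large scaffold, had 44.0, 67.3 and 73.2 FPKM in Rarres2-/- fat and 61.1, 54.9 and 56.0 FPKM in WT fat, a log2 difference of 0.07 (SE 0.219). In both, the 3 WT libraries lay between replicate 4 and the other Rarres2-/- libraries. Psmd4 differed by 0.00 (SE 0.261).

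The lid gene Psmd14 encodes the enzyme that cuts ubiquitin chains from substrates as they enter. It had 38.4, 78.4 and 75.8 FPKM in Rarres2-/- replicates 4, 5 and 6, against 46.4, 49.96 and 38.8 FPKM in WT replicates 1, 2 and 3. Its log2 difference of 0.44 (SE 0.295) was the largest of the 46, with an unadjusted limma p of 0.181 and an adjusted p of 0.999. It stayed above 0 whichever single library was left out, between 0.26 and 0.77, and was 0.79 without WT replicate 1 and Rarres2-/- replicate 4. Psmd12, a structural lid subunit, had 33.2, 57.9 and 55.5 FPKM in Rarres2-/- fat and 41.4, 44.3 and 37.6 FPKM in WT fat, a log2 difference of 0.21 (SE 0.237). The other 6 lid genes, Psmd3, Psmd6, Psmd7, Psmd8, Psmd11 and Psmd13, had log2 differences of -0.03 to 0.22.

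Over the 17 measured genes of the cap, 13 log2 differences were above 0 and 4 below, with a median of 0.07, against 48.6% above 0 over all genes tested. The count above 0 was 10 with quantile normalization, at a median of 0.02. It was 9 without Rarres2-/- replicate 5 and 6 without replicate 6, where the median turned to -0.06. In these 3 settings, 49.8%, 46.8% and 47.3% of all genes tested were above 0. Rarres2-/- replicates 5 and 6 were both above WT replicates 2 and 3 in 17 of 17, against 31.7% of all genes tested. The median level over the 14 constitutive 20S genes was 2.23, 2.70 and 3.03 times that over the 17 cap genes in Rarres2-/- replicates 4, 5 and 6, and 2.86, 2.69 and 2.80 times in WT replicates 1, 2 and 3. Rarres2-/- replicate 4 had the lowest of these ratios and replicate 6 the highest.

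Assembly chaperones had lower levels than the subunits. Of those of the base, Psmd9 had 7.76, 12.7 and 11.9 FPKM in Rarres2-/- fat and 11.3, 11.4 and 10.4 FPKM in WT fat, and Psmd10, also known as gankyrin, had 9.83, 15.7 and 14.3 FPKM in Rarres2-/- fat and 11.3, 13.6 and 13.1 FPKM in WT fat. Their log2 differences were -0.06 (SE 0.195) and 0.04 (SE 0.195), and Psmd5, the remaining one, had 0.03. Of the chaperones that build the core, Psmg3 had 8.12, 10.9 and 13.6 FPKM in Rarres2-/- fat and 12.7, 14.7 and 12.0 FPKM in WT fat, a log2 difference of -0.27 (SE 0.20), the most negative of the 46. Psmg2 had 10.2, 12.5 and 13.0 FPKM in Rarres2-/- fat and 13.5, 11.6 and 14.3 FPKM in WT fat, a log2 difference of -0.14 (SE 0.152). All 4 core chaperones were below 0, with Psmg1 at -0.06 and Psmg4 at -0.07, and their median was 0.07 without WT replicate 1 and Rarres2-/- replicate 4. None passed the test.

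The activators open the core without the 19S cap. Psme1 and Psme2, which form the interferon-induced activator, had their highest value in a Rarres2-/- library, unlike the immune subunits. Psme1 had 93.9, 157 and 191 FPKM in Rarres2-/- replicates 4, 5 and 6, against 169.8, 145 and 158 FPKM in WT replicates 1, 2 and 3. Psme2 had 117, 222 and 242 FPKM in Rarres2-/- fat and 210.3, 180.2 and 195 FPKM in WT fat. In both, Rarres2-/- replicate 4 was the lowest library and replicate 6 the highest. Replicate 5 was above every WT library in Psme2 but below WT replicates 1 and 3 in Psme1. The genes had a highest-to-lowest ratio of 2.03 and 2.07 in Rarres2-/- and 1.17 and 1.17 in WT fat. Their log2 differences were -0.15 (SE 0.279) and -0.08 (SE 0.298).

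Psme3, the nuclear activator, was the single proteasome gene whose genotypes did not overlap. It had 27.9, 32.3 and 31.4 FPKM in Rarres2-/- fat and 21.3, 25.8 and 27.8 FPKM in WT fat. The gap was narrow, since the lowest Rarres2-/- library and the highest WT library were 27.875 and 27.840 FPKM. Groups that did not overlap with Rarres2-/- higher were found for 5.81% of all genes tested, and with Rarres2-/- lower for 4.53%, against 1 and 0 of 46. The log2 difference of Psme3 was 0.29 (SE 0.157), with an unadjusted limma p of 0.114 and an adjusted p of 0.999.

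Psme4, an activator of the nucleus known for its part in histone turnover, had 15.5, 23.3 and 18.4 FPKM in Rarres2-/- fat and 12.5, 16.6 and 16.0 FPKM in WT fat, a log2 difference of 0.32 (SE 0.194). Psmf1, which inhibits the core in vitro and had the lowest mean level of the 46 genes, had 7.75, 8.46 and 9.43 FPKM in Rarres2-/- fat and 6.998, 8.12 and 7.78 FPKM in WT fat, a log2 difference of 0.14 (SE 0.134). Both overlapped between genotypes. Psme3, Psme4 and Psmf1 were among 12 of 46 proteasome genes whose difference kept its sign under every alternative run. The share over all genes tested was not computed, so the count has no background beside it. WT replicate 1 was the lowest library for these 3 genes, and without it their differences were 0.18, 0.20 and 0.09.

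**Figure D5:**
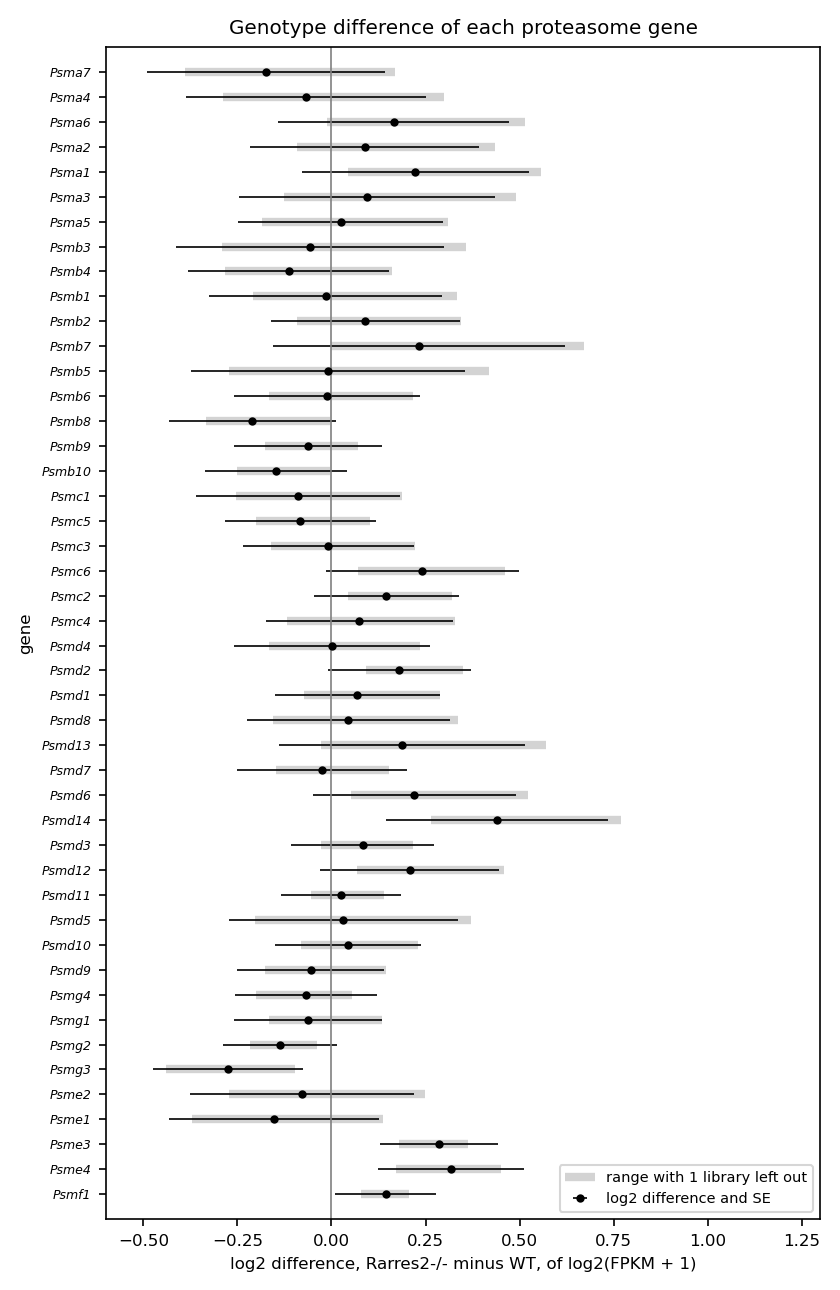
Log2 difference, Rarres2-/- minus WT, of each of the 46 proteasome genes by role (points with SE), with the lowest and highest value when 1 of the 6 libraries was left out (grey). Psmd14 lies highest at 0.44 and Psmg3 lowest at -0.27, and most grey ranges cross 0.

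The count of higher genes depended on Rarres2-/- replicate 4. Without it, 42 of 46 log2 differences were above 0, against 53.2% of all genes tested. Of the 46, 18 had an unadjusted limma p under 0.05, all higher, against 8.2% of all genes tested that passed and were higher. None of the 46 had an adjusted p under 0.05. Replicate 4 was already the lowest library for 42 of 46, so leaving it out was bound to raise their differences. Without Rarres2-/- replicate 4 and WT replicate 1, 44 were above 0, against 54% of all genes tested. Of the 46, 27 passed the unadjusted threshold, all higher, against 13.3% of all genes that passed and were higher. None of the 46 had a limma adjusted p under 0.05 there, against 0.613% of all genes, and the smallest was 0.0655 for Psmd14. Without Rarres2-/- replicate 5 or 6, 14 and 11 differences were above 0, against 46.8% and 47.3% of all genes tested. With limma array weights, which gave Rarres2-/- replicate 4 a weight of 0.179 and replicate 5 a weight of 6.19, 7 proteasome genes passed the adjusted threshold, all higher, against 6.95% of all genes that passed and were higher. They were Psma6, Psmd2, Psmd6, Psmd12, Psmd13, Psmd14 and Psme4, with log2 differences of 0.31 to 0.77.

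By mean FPKM, which is per length of transcript, the order was led by Psmb7 at 278, Psmb3 at 254, Psmb4 at 241, Psma7 at 205 and Psmb1 at 204, and ended with Psmg3 at 12.0, Psmd9 at 10.9 and Psmf1 at 8.09. Psmb8, Psmb9 and Psmb10 held ranks 20, 32 and 34 of 46, at means of 87.2, 53.2 and 49.4 FPKM. Neighbours in this order mostly did not differ beyond their SD over libraries. Of the genes described, 8 of the 47 have a transcript in the annotation at least 95% identical over at least 50% of their own, Psmb5, Psmb3, Psma4, Psma5, Psmc1, Psmd2, Psmd11 and Psme2, so reads may have been split or shared. Exons of 7 of the 47 overlap a listed gene on the other strand, among them Psmb9 with Tap1 and Psmb7 with Nek6, with use of strand in counting a detail not given in the sources used here.

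Genes that work with the proteasome were measured as lists, and no member of any of the 5 lists had a limma adjusted p under 0.05. Of 8 tested partners, 4 were above 0 and 4 below, with a median log2 difference of 0.02. The most different by unadjusted p was Akirin2, known to carry proteasomes into the nucleus, with 21.3, 20.2 and 27.2 FPKM in Rarres2-/- fat and 31.1, 26.9 and 28.7 FPKM in WT fat. Pomp, the maturation factor of the core, was picked for its values after they were seen, and had 128, 246 and 261 FPKM in Rarres2-/- replicates 4, 5 and 6 and 193, 198 and 218 FPKM in WT replicates 1, 2 and 3. It thus shared the low replicate 4 and high replicates 5 and 6 of the constitutive core.

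Of 8 tested regulators of proteasome genes, 4 were above 0 and 4 below, with a median of 0.07. Maff, a small Maf protein, had 7.24, 6.33 and 5.57 FPKM in Rarres2-/- fat and 3.69, 4.03 and 3.46 FPKM in WT fat, a log2 difference of 0.64 (SE 0.142) with a limma adjusted p of 0.939. Its genotypes did not overlap, with Rarres2-/- higher, as in 5.81% of all genes tested. Rarres2-/- replicate 4 was its highest library, unlike in the subunits. Nfe2l2, the relative of Nfe2l1 that answers oxidative stress, had 35.7, 46.7 and 45.6 FPKM in Rarres2-/- fat and 48.3, 60.0 and 47.2 FPKM in WT fat, a log2 difference of -0.28 (SE 0.179). The genotypes of Nfe2l2 did not overlap either, with Rarres2-/- lower, as in 4.53% of all genes tested. Nfe2l1 itself, given for its known role and not by rank, had 128, 137 and 148 FPKM in Rarres2-/- fat and 131, 115 and 119 FPKM in WT fat, a log2 difference of 0.18 (SE 0.157). It did not share the low level of the subunits in Rarres2-/- replicate 4.

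Of 13 tested genes that supply ubiquitin or deliver substrates, 9 were above 0 and 4 below, with a median of 0.12. The shuttle factor Ubqln1 had 56.1, 65.3 and 66.4 FPKM in Rarres2-/- fat and 40.6, 50.4 and 49.3 FPKM in WT fat, a log2 difference of 0.41 (SE 0.162). Ubqln1 was 1 of 2 genes of this list whose genotypes did not overlap, both with Rarres2-/- higher, against 5.81% of all genes tested. Of 11 tested genes of antigen processing, 9 were above 0 and 2 below, with a median of 0.11. Tapbp, which helps to load class I molecules, had 119, 119 and 137 FPKM in Rarres2-/- fat and 116, 109.7 and 113 FPKM in WT fat. It was the 1 gene of the 11 whose groups did not overlap, with Rarres2-/- higher, against 5.81% of all genes tested. Erap1, which trims the peptides, had a log2 difference of 0.22 (SE 0.193). B2m, the light chain of class I molecules, had 2297, 4472 and 4462 FPKM in Rarres2-/- fat and 2485, 3248 and 2999 FPKM in WT fat. Its lowest library was again Rarres2-/- replicate 4, and replicates 5 and 6 were above every WT library. The list as a whole was not low in replicate 4, where its median deviation was 0.04 on the log2 scale.

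Of 15 tested genes of the interferon gamma response, 9 were above 0 and 6 below, with a median of 0.09. Irf1, a transcription factor that drives Psmb9, had 21.9, 16.3 and 16.0 FPKM in Rarres2-/- fat and 37.2, 28.3 and 27.3 FPKM in WT fat, a log2 difference of -0.75 (SE 0.192) with a limma adjusted p of 0.999. Its genotypes did not overlap, with Rarres2-/- lower, as in 4.53% of all genes tested. In 2 other genes of the list the genotypes did not overlap with Rarres2-/- higher, against 5.81% of all genes tested. Like the immune subunits, Irf1 had its highest value in WT replicate 1, as did 24% of all genes tested.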

How the data were processed

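RNA-seq of inguinal white fat in 3 Rarres2-/- and 3 WT libraries was analysed from the 6 tables the authors deposited, 1 for each library, with FPKM per gene, per the file headers. In the table of WT replicate 3 the header gives a sample name and no unit, and the values were read as FPKM from its scale (median of tested genes 9.23, other libraries 9.05 to 9.37). Bowtie and mm10 stand in the submitters' processing notes, with the FPKM program, annotation and strand setting among details not given in the sources used here. As a unit, FPKM remove depth, and very abundant genes can move the others. Snord2 held 62.1% of the FPKM sum of WT replicate 1. The median of tested genes in that library was 9.05 FPKM, against 9.05 to 9.37 FPKM in the others. Rows without a symbol (737, or 0.793% to 4.91% of a library's sum) were left out.

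The 11086 named genes that averaged 1 FPKM or more were fitted as log2(FPKM + 1), which understates changes at low levels. The tool was limma (version 3.58.1, R 4.3.3; trend, two-sided, genotype alone, Benjamini-Hochberg over all genes, threshold 0.05). On simulated data of 11086 genes for this comparison, it called 32% of 100 genes changed by 1 on the log2 scale, 68% of 100 changed by 2, and 4 of 10886 unchanged genes. Ratios of immune to constitutive subunits were compared by exact two-sided permutation over libraries. Transcript lengths, copies (BLAST 2.17.0) and exon overlaps came from GENCODE on GRCm38, and promoters from RefSeq on GRCm38.p6.

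Members, lists and tests were chosen with earlier results of these data known. Values of every library are given for the catalytic subunits, activators and Psmf1, and for the 2 members of each other role with the smallest limma p. Of each related list, genes were named from the 3 with the smallest p, with Pomp and Nfe2l1 added; 1 gene is not reported here. Alternatives were a pseudocount of 0.1, every gene above 0, at least 5 FPKM in 3 libraries, quantile and upper-quartile scaling, no trend, array weights and left-out libraries.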

Additional observations from a re-analysis of the deposited data

How the results depend on the processing

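The count of proteasome genes past the adjusted threshold was 0 under the alternatives run except array weights, where it was 7; that fit stopped before convergence. Over all genes the count was 0, 1 with the 5 FPKM filter, 1 with upper-quartile scaling, 68 without both WT replicate 1 and Rarres2-/- replicate 4 and 1524 with array weights, and 0 to 1 with single libraries left out (1 without Rarres2-/- replicate 5 or 6). With array weights the log2 difference changed sign in 17 of 46 proteasome genes, among those given by library to 0.36 in Psmb5, 0.24 in Psmb6, 0.12 in Psmb9, 0.064 in Psme1, 0.23 in Psme2, 0.18 in Psma7, 0.15 in Psmb4 and 0.17 in Psmd9. Without both libraries it changed sign in 19 of 46, among those given by library to 0.47 in Psmb5, 0.33 in Psmb6, 0.076 in Psmb8, 0.19 in Psmb9, 0.053 in Psmb10, 0.19 in Psme1, 0.30 in Psme2, 0.28 in Psma7, 0.23 in Psmb4 and 0.16 in Psmd9. The cause was not tested.

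With 1 library left out at a time, log2 differences ran from -0.27 to 0.42 in Psmb5, -0.17 to 0.22 in Psmb6, -0.00046 to 0.67 in Psmb7, -0.18 to 0.070 in Psmb9, -0.37 to 0.14 in Psme1, -0.27 to 0.25 in Psme2, -0.39 to 0.17 in Psma7, -0.28 to 0.16 in Psmb4, -0.092 to 0.34 in Psmb2, -0.072 to 0.29 in Psmd1, -0.18 to 0.15 in Psmd9 and -0.082 to 0.23 in Psmd10. The difference in log2 ratio ran from -0.55 to -0.01 for Psmb8 to Psmb5, -0.16 to 0.014 for Psmb9 to Psmb6 and -0.77 to -0.09 for Psmb10 to Psmb7. No paired analysis was possible because the genotypes share no replicate numbers. With 3 libraries a genotype and no counts, counting error could not be given.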
